A study of Homo sapiens with 6 samples.

Results

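The libraries described here follow HEK293T cells from 4 h to 8 h after a flash of light. HEK293T is a transformed human embryonic kidney line with some neural features. The cells had been transfected together with the plasmids pShP2419 and pStH1169, grown for 48 h with 4,5-dimethoxy-2-nitrobenzyl-L-serine (0.1 mM), which is serine carrying a light-sensitive cage, and rinsed in DPBS. They were then lit at 365 nm for 3 min and kept in growth medium for 4 h (uncaged 4 h, 2 libraries) or 8 h (uncaged 8 h, 2 libraries). These are 4 of the 6 libraries of the series, grouped by their labels, in a comparison chosen with earlier results of these data known. The other 2 are caged cells with the same plasmids and caged serine and no light (0 h), shown for reference only.

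The plasmid sequences in the count table include human TET2 with an amber codon. TET enzymes oxidise 5-methylcytosine in CpG dinucleotides, the first chemical step of active DNA demethylation, and the repair enzyme TDG removes the oxidised bases. DNA methyltransferases write the mark: DNMT1 copies it after replication, and DNMT3A and DNMT3B place it on unmarked DNA. A caged serine at a site that an enzyme needs blocks it until light removes the cage, so the interval from 4 h to 8 h asks how transcripts go on changing once the enzyme has been switched on.

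All 4 libraries had light, wash and fresh medium. Time since light, time since wash and medium change, and time since transfection therefore moved together and cannot be told apart, and no lit cells without the enzyme were among the samples. Cells of 1 line were sorted for transfection, 500,000 per sample, and nothing in the labels says that replicates came from separate cultures. The p-values thus measure only the spread between these samples, which may be technical.

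Promoters of 2 of the genes with the smallest p-values in each direction are shown first, because CpG is the dinucleotide on which TET2 acts. GNL2 and UTP14A rose from 4 h to 8 h, and MAGI1 and LRP2 fell. Each sequence runs 5′ to 3′ from 250 bases before to 50 bases after the RefSeq start (GRCh38.p14), with every CG in capitals.
GNL2, chr1:37595888-37596187, minus strand: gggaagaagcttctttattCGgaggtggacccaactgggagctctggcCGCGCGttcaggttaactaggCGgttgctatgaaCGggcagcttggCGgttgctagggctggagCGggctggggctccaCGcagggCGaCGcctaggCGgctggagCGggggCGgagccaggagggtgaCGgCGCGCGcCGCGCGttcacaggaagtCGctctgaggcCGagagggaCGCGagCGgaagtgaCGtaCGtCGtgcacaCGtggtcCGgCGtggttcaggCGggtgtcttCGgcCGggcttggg
UTP14A, chrX:129905914-129906213, plus strand: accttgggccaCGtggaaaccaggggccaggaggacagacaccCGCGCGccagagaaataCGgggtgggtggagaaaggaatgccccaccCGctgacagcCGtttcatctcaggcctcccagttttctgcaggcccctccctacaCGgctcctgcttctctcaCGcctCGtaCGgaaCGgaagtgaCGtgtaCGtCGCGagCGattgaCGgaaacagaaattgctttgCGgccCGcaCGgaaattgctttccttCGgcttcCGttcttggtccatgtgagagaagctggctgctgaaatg
MAGI1, chr3:66038869-66039168, minus strand: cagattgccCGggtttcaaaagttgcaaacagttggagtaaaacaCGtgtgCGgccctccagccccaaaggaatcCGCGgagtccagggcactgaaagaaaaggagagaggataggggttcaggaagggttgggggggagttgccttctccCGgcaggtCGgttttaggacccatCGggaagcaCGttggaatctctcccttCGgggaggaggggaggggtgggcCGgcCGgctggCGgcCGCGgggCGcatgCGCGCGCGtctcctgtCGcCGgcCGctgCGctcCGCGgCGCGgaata
LRP2, chr2:169362485-169362784, minus strand: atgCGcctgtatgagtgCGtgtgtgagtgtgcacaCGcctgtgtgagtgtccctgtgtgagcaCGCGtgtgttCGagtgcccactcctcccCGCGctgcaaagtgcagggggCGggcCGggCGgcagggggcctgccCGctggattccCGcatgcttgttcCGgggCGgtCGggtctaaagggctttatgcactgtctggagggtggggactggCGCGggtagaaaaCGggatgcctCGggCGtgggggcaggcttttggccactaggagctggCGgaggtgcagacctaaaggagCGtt
The GNL2 window held 35 CG and the UTP14A window 23, while the windows of MAGI1 and LRP2 held 28 and 23. Over 35116 promoter windows of 300 bases in the same table the median was 14 CG, the quartiles were 4 and 28, and 96% held at least 1. All 4 windows held more CG than the median window, but 2 other windows read in the same way did not: UTP14C, which rose, had 2 CG and CLSTN3, which fell, had 14. A comparison over all called genes was void, because 268 of 318 called coding genes that were higher had an entry (84.3%) but only 152 of 201 that were lower (75.6%).

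The libraries were close in depth. Human genes received 15243187 and 15090073 estimated counts at 4 h and 14975311 and 14903812 at 8 h, so that 3 counts, the floor used for a gene at 0, corresponded to 0.197 to 0.21 CPM, the unit of counts scaled to library size. Plasmid sequences took 14.8% to 15.5% of all counts in the 4 libraries. All 8 markers of the HEK293 lineage exceeded 1 CPM, whereas 2 of 13 markers of other cell types did, the highest at 1.95 CPM, and 4 were at 0 in all 4 libraries. The counts of replicate libraries differed by more than sampling noise, with a chi-square per degree of freedom of 3.62 at 4 h and 4.3 at 8 h.

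From 4 h to 8 h, 570 of 17449 tested features changed (edgeR quasi-likelihood test, Benjamini-Hochberg adjusted p under 0.05), which is 3.27% of them. Of these, 358 were higher at 8 h (2.05%) and 212 were lower (1.21%). The changes were small: the median called fold was 1.369 upward and 1.384 downward, and 26 and 18 features passed 2-fold. The groups did not overlap at any called feature, but this was also true of 53.3% of all features tested. By the same test against caged cells, 6.16% of features were higher and 3.56% lower at 4 h, and 14.9% were higher and 13.2% lower at 8 h. Those 2 comparisons share libraries with the one reported here.

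The count dropped when 1 library was left out, which leaves that group with 1 library. Without replicate 1 at 4 h the edgeR test called 6 features higher and 0 lower (1598 and 1433 at an unadjusted p under 0.05), and without replicate 2 at 4 h it called 9 and 1. Without replicate 1 at 8 h it called 173 and 28, and without replicate 2 at 8 h 25 and 8. Without either 4 h library the difference for GNL2 was 0.60 and 0.62 on the log2 scale, against 0.61 with all, while its adjusted p rose to 0.0905 and 0.0726. The direction of each named called gene stayed the same in every one of these 4 fits. It could hardly turn, because the 4 h and 8 h libraries did not overlap at any called feature. Among the named called genes, only MT-RNR1, MT-RNR2 and UTP14C kept their call in all of these fits. Scaling to library totals alone gave 245 higher and 449 lower, so the share of calls that were higher went from 62.8% to 35.3%, while the median over all features moved to -0.06 on the log2 scale. Replicate 2 lay above replicate 1 at 8 h for 68.2% of the features called higher, against 45.8% of those called lower and 50% of all.

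In the list of ribosome biogenesis and nucleolar genes, 9 of 75 tested members rose and 0 fell, a share of 12% against 2.05% of all features, and the median log2 fold change was 0.07 against -0.003 over all features. GNL2, a nucleolar GTPase of large-subunit maturation (ENSG00000134697, chr1:37566816-37595935), stood at 79.2 and 79.8 CPM at 4 h and at 121 and 122 CPM at 8 h. Its 4 h libraries lay within the range of the caged ones (77.9 and 80.9 CPM) and both 8 h libraries lay well above all others. The difference was 0.61 ± 0.057 (log2, SE; adjusted p = 0.00903). UTP14A, a component of the small-subunit processome, gave 89.4 and 89.6 CPM at 4 h and 131 and 132 CPM at 8 h, a rise of 0.56 ± 0.055 on the log2 scale (adjusted p = 0.0107). NCL, the abundant nucleolar protein nucleolin, went from 391 and 359 CPM to 525 and 579 CPM, and NOP58, a core protein of box C/D small nucleolar ribonucleoproteins, from 156 and 158 CPM to 224 and 256 CPM. Again the 8 h libraries were above all of the others, by 1.47-fold for NCL and 1.53-fold for NOP58 (adjusted p = 0.0144 and 0.0174). Outside the list, RSL1D1, a nucleolar ribosomal L1-domain protein, rose 1.52-fold (adjusted p = 0.0144). With 1 of the 4 libraries left out, 0 to 7 members of the list were called higher.

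Components of the ribosome itself had small differences. Of 83 cytosolic ribosomal protein genes, 95.2% had a log2 difference above 0, against 49.4% of all features, and the median was 0.13. The test called 8 higher (9.64% against 2.05%) and 0 lower, among them RPS27L, a ribosomal protein-like gene that is also a p53 target. RPL6, a large-subunit protein, stood at 786 and 777 CPM at 4 h and at 989 and 1024 CPM at 8 h, against 765 and 792 CPM in caged cells, and rose 1.29-fold (adjusted p = 0.0144). RPL24, RPL14 and RPL4, also of the large subunit, rose 1.21-, 1.18- and 1.15-fold. Ribosomal protein genes have many processed pseudogenes, so the division of reads among copies is uncertain. The whole list summed to 63890 and 61360 CPM at 4 h and to 68830 and 67220 CPM at 8 h. Of 78 mitochondrial ribosomal protein genes 1 was higher and 0 lower, with a median of 0.10. Without 1 of the 4 libraries, at most 1 cytosolic ribosomal protein gene was called, and the median ranged from 0.09 to 0.16. With cyclic loess scaling 1 was called and the median was 0.02, with library totals 2 were called, and with length and GC offsets the median was 0.06.

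Translation factors gave 5 higher and 0 lower of 85 (5.88% against 2.05%), with a median of 0.08. Cyclic loess scaling gave 1 higher and 2 lower with a median of 0.02, and library totals gave 3 and 1. EIF2A, an initiation factor that can deliver the initiator tRNA, went from 62.7 and 66.1 CPM to 85.0 and 92.6 CPM (adjusted p = 0.025). EIF5, the GTPase-activating factor of start codon recognition, rose 1.27-fold, and the EIF3 subunits EIF3A and EIF3H rose 1.21- and 1.23-fold. Proteasome subunits gave 4 higher (8.51%) and 0 lower of 47: PSMB6, a catalytic core subunit, PSMD7 and PSMD12 of the lid, and the base ATPase PSMC3, by 1.26-, 1.25-, 1.28- and 1.18-fold. The median of the proteasome list was 0.13, and cyclic loess or library totals left 1 called. In aminoacyl-tRNA synthetases the test called 0 of 40 in either direction, against 3.27% of all features, with a median of 0.002. No proteasome subunit and 0 to 3 translation factors were called with 1 of the 4 libraries left out.

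Splicing genes formed the list with the most calls outside the large zinc finger family. Of 133 SR, hnRNP and spliceosome genes, 22 rose and 0 fell (16.5% against 2.05%), and the median was 0.13. PRPF3, a protein of the U4/U6 small nuclear ribonucleoprotein, stood at 156 CPM in both 4 h libraries and at 201 and 202 CPM at 8 h, against 150 and 152 CPM in caged cells. It rose by 0.37 ± 0.050 (log2, SE; adjusted p = 0.0197). SF3B6, which contacts the branch point, rose from 152 and 145 CPM to 197 and 209 CPM (adjusted p = 0.0241). SRRM1, a coactivator rich in serine and arginine, rose 1.33-fold, and HNRNPD, also known as AUF1 and a regulator of mRNA decay, rose 1.23-fold. The 8 h libraries were higher in each of these. Their groups did not overlap, which held for every called feature and for 53.3% of all tested. The list summed to 34220 and 34140 CPM at 4 h and to 37020 and 38210 CPM at 8 h, and in caged cells to 29370 and 29610 CPM. Among the CLK and SRPK kinases, which phosphorylate SR proteins, 0 of 13 were called, against 3.27% of all features, with a median of 0.16. With 1 of the 4 libraries left out, 0 to 11 splicing genes were called higher.

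Further genes that rose, named for a small p or a large fold, follow. IK, a spliceosomal protein, went from 82.9 and 78.2 CPM to 122 and 125 CPM, and IWS1, a partner of the elongating polymerase, from 87.9 and 88.5 CPM to 130 and 133 CPM (both adjusted p = 0.0107). SSB, the La protein that binds the ends of polymerase III transcripts, was at 32.7 and 32.8 CPM at 4 h and at 54.5 and 67.5 CPM at 8 h. In caged cells SSB was at 50.9 and 49.9 CPM, so that the 4 h libraries were the lowest of the 6. CWC22, which recruits the exon junction complex, had the same order of groups: 9.43 and 10.3 CPM caged, 6.76 and 6.48 CPM at 4 h, and 11.7 and 14.4 CPM at 8 h. CIR1, a corepressor, rose 1.87-fold, FAM133B 1.64-fold and CCDC59, a thyroid transcription factor partner, 1.72-fold. TAF7, a TFIID subunit, rose 1.43-fold, 1 of 3 called higher of 129 genes of the transcription machinery, a share of 2.33% that is close to the 2.05% of all features.

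The noncoding RNA MALAT1, a nuclear transcript of speckles (chr11:65497688-65506516), was lowest at 4 h. It was at 205 and 279 CPM in caged cells, at 108 and 127 CPM at 4 h and at 259 and 284 CPM at 8 h. The 4 h libraries were the lowest, and the 8 h libraries overlapped the caged ones. From 4 h to 8 h MALAT1 rose by 1.21 ± 0.14 (log2, SE; adjusted p = 0.0161). CHASERR, a long noncoding RNA next to the chromatin remodeler gene CHD2 and known to restrain it, rose from 179 and 180 CPM to 235 and 232 CPM, and CHD2 rose in the same libraries from 228 and 243 CPM to 298 and 293 CPM. Of 22 nuclear and long intergenic RNAs on the list, MALAT1 and CHASERR were the 2 called.

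Of 15 transcripts of the mitochondrial genome, 6 rose and 0 fell (40% against 2.05%), and the median log2 difference was 0.21. With cyclic loess scaling 2 rose and 2 fell and the median was 0.05, and with length and GC offsets 2 rose and 2 fell and the median was 0.03. MT-RNR1, the small mitochondrial ribosomal RNA, was at 5928 and 6354 CPM at 4 h and at 9368 and 8758 CPM at 8 h, a rise of 0.56 ± 0.046 (log2, SE; adjusted p = 0.00611). MT-RNR2, the large mitochondrial ribosomal RNA, was at 4448 and 4783 CPM at 4 h and at 7075 and 6830 CPM at 8 h, a rise of 0.59 ± 0.049 (adjusted p = 0.00611). Their caged levels stood on different sides: MT-RNR1 was lower in caged cells (4500 and 4778 CPM) than at 4 h, and MT-RNR2 was higher (6046 and 5510 CPM). MT-ND1 and MT-ND2, subunits of complex I, rose 1.21- and 1.17-fold. Because the libraries were enriched for polyadenylated RNA, ribosomal RNA levels also move with how that enrichment went, whose part was not tested. Nuclear-encoded subunits of oxidative phosphorylation gave 4 higher (4.71%) and 0 lower of 85 with a median of 0.08, and 1 higher with cyclic loess and 0 with library totals. ATP5PB of the ATP synthase rose 1.19-fold, and NDUFS4 of complex I rose 1.29-fold. With 1 of the 4 libraries left out, 2 or 3 mitochondrial transcripts and 0 of the nuclear-encoded subunits were called.

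Of 41 targets of p53, 6 rose and 0 fell (14.6% against 2.05%), and the median was 0.16. MDM2, the ubiquitin ligase that degrades p53, was at 646 and 657 CPM at 4 h and at 762 and 787 CPM at 8 h, with 607 and 636 CPM in caged cells. BBC3, the proapoptotic protein PUMA, went from 51.9 and 57.2 CPM to 70.2 and 69.7 CPM. TRIAP1, an antiapoptotic p53 target, rose from 146 and 148 CPM to 185 and 183 CPM, and DDB2, which recognises ultraviolet lesions in DNA, from 423 and 410 CPM to 523 and 474 CPM. The 8 h libraries were the highest of the 6 for each of these genes. The rises were 1.19-fold for MDM2, 1.28-fold for BBC3, 1.25-fold for TRIAP1, 1.31-fold for RPS27L and 1.197-fold for DDB2, with adjusted p between 0.0261 and 0.0462. HEK293T cells carry viral large T antigen, which binds p53. The summed level of the list was 8000 and 8051 CPM at 4 h and 9017 and 9013 CPM at 8 h. Leaving out any 1 of the 4 libraries left 0 of these genes called, with medians from 0.15 to 0.19.

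In the list of the integrated stress response, which runs through the factor ATF4, 3 of 54 were higher (5.56%) and 1 lower (1.85%), with a median of -0.003. DDIT3, the factor CHOP, went from 49.8 and 51.1 CPM to 70.6 and 75.7 CPM (1.45-fold, adjusted p = 0.0174). ATF3 rose 1.21-fold, and PPP1R15A, which restores translation by dephosphorylating eIF2alpha, rose 1.28-fold. SLC7A1, a cationic amino acid transporter, fell from 201 and 199 CPM to 150 and 154 CPM. Of 36 genes of the unfolded protein response 0 were higher and 3 lower (8.33% against 1.21%). These were SEC24D of the COPII coat, CREB3L2, a membrane-bound transcription factor, and ERN1, the sensor IRE1, lower by 1.39-, 1.28- and 1.29-fold. The median of that list was -0.004, with 18 of 36 members above 0. With a replicate block 0 were called. With 1 of the 4 libraries left out its median ranged from -0.009 to 0.005. Among 47 heat shock proteins and cochaperones, HSPA4 and HSPA4L of the HSP110 family rose 1.43-fold each, while HSPB1, the small heat shock protein HSP27, fell from 119.2 and 123.9 CPM to 97.7 and 85.3 CPM. GADD45A, a DNA damage gene that has also been linked to active demethylation, rose from 392 and 396 CPM to 517 and 535 CPM (adjusted p = 0.025). In lists for NRF2 targets (31), hypoxia and glycolysis (44) and metallothioneins (9), 0 were called, against 3.27% of all features.

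Immediate-early genes are the first wave of a response to a stimulus. Of 57, 4 were higher (7.02% against 2.05% of all features) and 1 lower (1.75% against 1.21%), with a median of 0.03. ATF3 and PPP1R15A, given above for the integrated stress response, were among the higher ones, so the lists overlap. Library totals gave 2 higher and 2 lower. With 1 of the 4 libraries left out, the median ranged from -0.009 to 0.026. FOSL1, a Fos family factor, rose in a staircase from 17.6 and 16.9 CPM in caged cells to 24.2 and 26.7 CPM at 4 h and 38.4 and 39.2 CPM at 8 h. From 4 h to 8 h this was 1.53-fold (adjusted p = 0.0188). SPRY1, a feedback inhibitor of growth factor signalling, rose 1.38-fold. MYC took the other course, at 28.99 and 26.62 CPM caged, 63.7 and 54.9 CPM at 4 h and 44.9 and 42.5 CPM at 8 h, and fell 1.36-fold in the second interval (adjusted p = 0.0417).

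Some of the genes that fell had their highest level at 4 h. IRS4, an insulin receptor substrate that is abundant in this line, was at 31.1 and 24.2 CPM caged, at 62.3 CPM in both 4 h libraries and at 37.48 and 36.05 CPM at 8 h. IRS4 fell by 0.76 ± 0.11 on the log2 scale (SE), or 1.69-fold (adjusted p = 0.0221). VCL, the focal adhesion protein vinculin, was at 159 CPM in both caged libraries, at 212 CPM in both 4 h libraries and at 168 CPM in both 8 h libraries. AMOT, an angiomotin that restrains YAP, was at 84.1 CPM in both caged libraries, at 128 and 127 CPM at 4 h and at 106 and 108 CPM at 8 h. ZNF503 fell from 155 and 152 CPM to 121 and 111 CPM, with 93.2 and 90.2 CPM in caged cells. In the list of YAP and SRF targets, VCL, AMOT and the YAP partner TEAD1 were lower and ACTA2, smooth muscle actin, was higher. These are 8.82% and 2.94% of 34 members, against 1.21% lower and 2.05% higher of all features, and the median was -0.08. With a replicate block 0 were higher and 1 lower. The median ranged from -0.108 to -0.03 with 1 of the 4 libraries left out.

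Of 72 genes of G2 and mitosis, 6 rose (8.33% against 2.05%) and 0 fell, with a median of 0.14. Of 64 genes of S phase and the G1/S transition 0 were called, against 3.27% of all features, with a median of 0.01. KIF18A, a kinesin that dampens chromosome oscillation, was at 17.7 and 14.5 CPM at 4 h and at 28.0 and 37.9 CPM at 8 h. DLGAP5, a spindle protein, went from 37.9 and 40.9 CPM to 63.7 and 79.1 CPM. For both genes replicate 2 at 8 h was the highest library. KIF4A, a chromosome-bound kinesin, rose 1.43-fold and NUSAP1, a spindle-associated protein, 1.35-fold. With 1 of the 4 libraries left out 0 to 6 were called. Of 32 core and linker histone genes, H4C14 and H2BC12 were higher, and the list's summed level overlapped between groups (1673 and 1610 CPM at 4 h, 1644 and 1524 CPM at 8 h) although its median was 0.28.

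Of 451 zinc finger genes of the ZNF family, 28 rose and 3 fell (6.21% higher against 2.05%), and the median was 0.14. These DNA-binding proteins, many with a KRAB domain, are known as silencers of transposable elements. ZNF430 went from 34.5 and 37.7 CPM to 56.2 and 66.8 CPM, ZNF195 from 23.1 and 26.7 CPM to 41.1 and 47.4 CPM, ZNF121 from 73.9 and 75.1 CPM to 102 and 108 CPM and ZNF26 from 24.8 and 25.1 CPM to 35.96 and 40.17 CPM. The 8 h libraries were the highest of the 6 for all 4 genes, and replicate 2 was above replicate 1. ZNF92 had unequal 8 h libraries, at 14.3 and 24.0 CPM against 8.73 and 6.94 CPM at 4 h. ZNF503, ZNF516 and ZNF699 were the 3 that fell, by 1.32-, 1.41- and 1.41-fold. The ZNF genes are similar in sequence, so that the division of reads among them is uncertain. With 1 of the 4 libraries left out, 0 to 20 were called higher and 0 to 1 lower, while the median stayed between 0.11 and 0.16.

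Chromatin regulators had calls in both directions. Of 46 remodeler genes 7 were higher (15.2% against 2.05% of all features) and 2 lower (4.35% against 1.21%), with a median of 0.06. With a replicate block 6 were higher and 0 lower. The median ranged from 0.025 to 0.092 with 1 of the 4 libraries left out. BRD7, a bromodomain subunit of a SWI/SNF complex, rose from 68.6 and 68.2 CPM to 91.0 and 96.5 CPM, and SMARCE1, also a SWI/SNF subunit, rose 1.33-fold. ARID4B, a SIN3 corepressor subunit, was at 72.6 and 74.4 CPM caged, 48.0 and 48.5 CPM at 4 h and 65.9 and 75.1 CPM at 8 h. ARID3A and ARID3B, DNA-binding factors that share the ARID domain, fell 1.25- and 1.23-fold. Among 52 histone lysine methyltransferases and demethylases, KMT2E rose 1.52-fold and KMT5B, which methylates histone H4, 1.46-fold, while JARID2, a partner of the Polycomb complex PRC2, fell 1.31-fold. That list thus had 3.85% higher and 1.92% lower, against 2.05% and 1.21% of all features. With a replicate block 2 of its members were higher and 0 lower. Its median lay between -0.056 and 0.006 with 1 of the 4 libraries left out. Of histone acetyltransferases and deacetylases 0 of 33 were called, against 3.27% of all features.

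Several genes of cell contacts and membranes, grouped here after their values were seen, were among those that fell. MAGI1, a scaffold of tight junctions (ENSG00000151276, chr3:65353525-66038834), was at 44.0 and 43.2 CPM at 4 h and at 28.7 and 28.1 CPM at 8 h, with 46.2 and 44.9 CPM in caged cells. It had the smallest adjusted p of the genes that fell, 0.0144, and a log2 change of -0.62 ± 0.069 (SE). LRP2, the endocytic receptor megalin, stood at 15.9 and 15.3 CPM at 4 h and at 8.49 and 8.94 CPM at 8 h. CLSTN3, a calsyntenin of synaptic membranes, went from 30.4 and 31.7 CPM to 20.4 and 18.3 CPM, and PTPN3, a membrane-associated tyrosine phosphatase, from 31.7 and 30.6 CPM to 20.5 and 20.7 CPM. The 8 h libraries were the lowest of the 6 in these 4 genes. LRP2 fell 1.79-fold, CLSTN3 1.60-fold and PTPN3 1.51-fold (adjusted p = 0.0172 for each).

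Of 16 genes for LDL receptor related proteins, 3 fell (18.8% against 1.21%) and 0 rose, with a median of -0.17. Besides LRP2 these were LRP1, from 53.3 and 58.0 CPM to 40.4 and 37.2 CPM, and LRP4, an agrin receptor, from 24.8 and 27.5 CPM to 18.8 and 19.4 CPM. Of 32 cadherins and protocadherins only PCDH9 passed the test (1.64-fold lower), but the list had the lowest median of those with 15 or more members, -0.32. The adhesion receptor ADGRB3 was at 7.35 and 7.87 CPM at 4 h and at 3.52 and 3.21 CPM at 8 h, 2.26-fold lower. CNTN1, a contactin of axons, ROBO2, a receptor for the axon guidance factor SLIT, SEMA4G, a semaphorin, and MAGI2, a synaptic scaffold, fell 1.73-, 1.96-, 1.79- and 1.89-fold. JCAD, a junctional protein, fell 1.46-fold. Integrins and extracellular matrix genes gave 0 higher and 2 lower (2.02%) of 99 with a median of -0.14, one of them ADAMTS6, a secreted protease that fell 1.77-fold. With 1 of the 4 libraries left out, at most 1 of the LDL receptor related genes and 0 of the cadherins were called, and the medians of both lists stayed below 0.

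Among solute carriers other than amino acid and mitochondrial ones, 0 of 186 rose and 6 fell (3.23% against 1.21%), with a median of -0.12. SLC2A12, a glucose transporter, was at 7.74 and 5.42 CPM at 4 h and at 2.69 and 2.86 CPM at 8 h (2.37-fold lower). SLC9A9, an endosomal sodium-proton exchanger, SLC23A2, a vitamin C transporter, and SLC44A2, a choline transporter-like protein, fell 1.60-, 1.33- and 1.31-fold. Amino acid transporters gave 2 lower of 28 (7.14%), SLC7A1 and the lysosomal SLC36A1. In the list for cholesterol and fatty acid synthesis 0 were higher and 2 lower (4.76%) of 42, with a median of -0.14. SREBF2, the master factor of cholesterol synthesis, went from 189 and 190 CPM to 155 and 152 CPM, next to its caged levels of 156 and 152 CPM, and ACACA, the first enzyme of fatty acid synthesis, fell 1.29-fold. The calls on these carrier and lipid genes needed all 4 libraries and were lost without any 1 of them. In those fits the median stayed below 0 in each list. It was -0.118 to -0.094 for the other solute carriers and -0.167 to -0.072 for amino acid transporters. For cholesterol and fatty acid synthesis it was -0.145 to -0.118. Of 37 HOX genes, which encode developmental transcription factors, 0 were called, against 3.27% of all features, with a median of -0.12.

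Gene length differed between the genes called in each direction. Among called coding genes the median gene length was 84.9 kb for those lower at 8 h, 33.5 kb for those higher and 33.8 kb for all tested. Genes of at least 200 kb made up 61 of the 201 that fell (30.3%), 12 of the 318 that rose (3.77%) and 8.32% of all 13968. The median log2 change declined from 0.02 in genes under 10 kb to -0.12 at 200 to 500 kb and -0.20 at 500 kb or more. Genes of at least 200 kb took 3.74% and 3.65% of coding CPM at 4 h and 3.38% and 3.46% at 8 h, against 3.90% and 3.92% in caged cells. Groups did not overlap, and caged cells were the highest. MAGI2, ROBO2, PCDH9, ADGRB3 and MAGI1 are examples, with lengths of 1437, 1743, 928, 754 and 685 kb.

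Transcript length moved with gene length. Called genes that fell had a median longest transcript of 5941 bases, against 3478 for those that rose and 3685 for all. Among genes whose longest transcript was in the shortest of 3 equal classes, the median change was 0.03 both under 100 kb (4382 genes) and at 200 kb or more (104 genes). In the middle class these medians were -0.01 and -0.11, and in the longest class -0.04 and -0.16. Base composition moved too: the median GC content of the longest transcript was 43.1% for genes that rose and 50.3% for those that fell, against 48.7% for all. The lowest of 5 equal GC classes took 18.4% and 17.6% of coding CPM at 4 h and 17.8% and 19.3% at 8 h, so those groups overlapped, and its median change of 0.03 became -0.02 without replicate 2 at 8 h or with library totals alone. The highest class took 13.70% and 14.24% at 4 h, 13.64% and 12.80% at 8 h, and 14.03% and 13.25% in caged cells. Its median change was -0.08 and ranged from -0.131 to -0.005 over the alternatives. Genes of 200 kb or more had a median below 0 in all 5 GC classes, from -0.09 to -0.20. In genes under 100 kb the medians from the lowest GC class to the highest were 0.057, 0.057, 0.017, -0.036 and -0.073. With each library's trend on transcript length and GC removed, an alternative added after the data were seen, the median was -0.08 in genes of 200 kb or more and -0.01 in the lowest GC class, and 803 features were called higher and 342 lower.

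Of 7 genes for TET enzymes and DNA methyltransferases, TET2 alone was called. It was at 4088 and 4039 CPM at 4 h and at 4664 and 4402 CPM at 8 h, and rose by 0.16 ± 0.033 (log2, SE; adjusted p = 0.0451). Reads of the TET2 plasmid and of the cell's own gene cannot be separated in that row, and its sign turns (-0.025) with cyclic loess scaling. The TET2 call is also lost with library totals (adjusted p = 0.114), with no low-count filter (0.153), with the 4 libraries only (0.0636), with a replicate block (0.0685), in the glmTreat test, and without any 1 of the 6 libraries (0.0647 to 0.174). The plasmid row named TET2_amber gave 46960 and 46780 CPM at 4 h and 54500 and 51600 CPM at 8 h. The plasmid row named TET2_start gave 59180 and 58040 CPM at 4 h and 62000 and 60480 CPM at 8 h. Their log2 differences of 0.18 and 0.06 did not pass (adjusted p = 0.0549 and 0.135), nor did the 0.07 of the plasmid row named other (0.37). The plasmid rows for mCherry and CMV fell by 0.24 and 0.23 (adjusted p = 0.0431 and 0.0437). TET1 was at 28.7 and 27.4 CPM at 4 h and at 21.8 and 26.1 CPM at 8 h, and TET3 at 47.4 and 57.9 CPM and at 51.9 and 49.6 CPM. Neither passed the test (adjusted p = 0.209 and 0.8). DNMT3B had 39.90 and 42.98 CPM at 4 h and 34.3 and 32.8 CPM at 8 h (adjusted p = 0.106), DNMT3A a log2 difference of -0.17 ± 0.070, DNMT1 of 0.05 ± 0.055 and TDG of 0.19 ± 0.064, none of which passed. The sign of the differences for TET3, DNMT1 and DNMT3A turned under at least 1 alternative. Of 36 cofactors, readers and base excision repair genes, GADD45A was higher and TRDMT1, a tRNA methyltransferase of the DNMT family, was lower by 1.45-fold. Of 17 imprinted genes and 9 germline genes, classes known to be silenced by methylation, 0 were called, against 3.27% of all features. Lists this small cannot show a departure from that share. The median log2 difference was -0.02 for imprinted genes. For germline genes it was 0.27, with 6 of 9 above 0.

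Genes absent at 4 h gave the highest fitted folds. UTP14C, an intronless copy of UTP14A with its coordinates at chr13:52024691-52033600, was at 0 in both 4 h libraries and both caged libraries and at 8.97 and 10.1 CPM at 8 h, at least 96.3-fold higher (floor of 3 counts over the group, adjusted p = 0.00611). Its sequence is shared with UTP14A, and the estimates divide reads between them, so its level is uncertain. RCC2-AS1, an antisense RNA, was at 2.89 and 3.82 CPM in caged cells, at 0 in both 4 h libraries and at 3.04 and 5.80 CPM at 8 h, at least 44.7-fold above 4 h. NPIPB14P, a pseudogene of a duplicated family, went from 1.51 and 1.12 CPM to 6.69 and 5.59 CPM, with 5.67 and 4.21 CPM in caged cells. Estimates that were not whole numbers, a sign of reads divided among features, occurred in at least 1 of the 4 libraries for 76.3% of features called higher, 54.2% of those called lower and 64.1% of all tested. Among whole estimates alone, 305 of 6270 features were higher and 170 lower.

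CEACAM1, a cell adhesion molecule, was at 3.49 and 3.43 CPM caged, 5.64 and 5.75 CPM at 4 h and 11.9 and 10.4 CPM at 8 h. BTC, the growth factor betacellulin, went from 2.95 and 2.65 CPM to 5.73 and 5.31 CPM, and GALR2, a galanin receptor, from 4.00 and 3.64 CPM to 8.01 and 6.71 CPM. Each was lowest in caged cells, and the folds from 4 h to 8 h were 1.96, 1.97 and 1.92. Among genes that fell from a similar level were GALNT6, a glycosyltransferase (7.28 and 7.87 CPM to 4.07 and 3.91 CPM), and IL17RD, an inhibitor of growth factor signalling (9.12 and 10.2 CPM to 5.18 and 5.66 CPM). NYNRIN fell 1.61-fold.

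**Figure D1:**
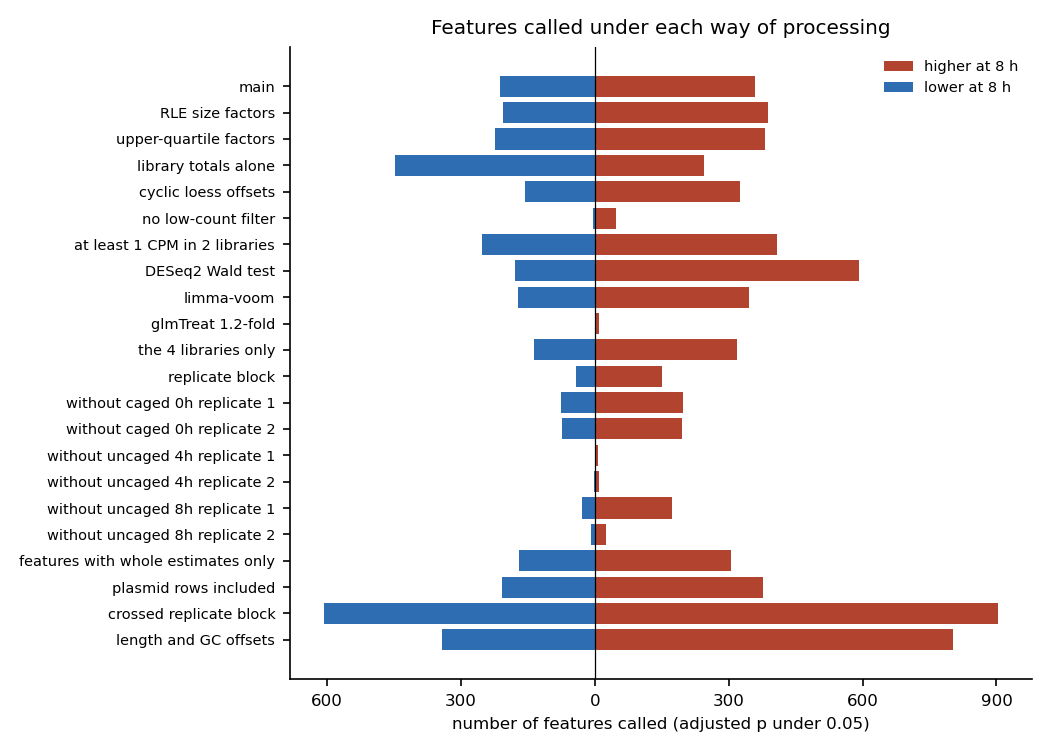
Number of features called higher (right) and lower (left) at 8 h (x axis) in the reported fit, named main, and under each alternative way of processing (rows). Counts fall to 6 and 0 without replicate 1 at 4 h and rise to 904 and 608 with crossed replicate numbers as a block.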

How the data were processed

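Polyadenylated RNA of sorted, transfected HEK293T cells was sequenced on the DNBseq platform, per the labels. The deposited table holds estimated counts per feature for 6 libraries, made by the authors with Salmon 1.1.0 on GRCh38, per the submitters' processing notes, which also name R 3.6.1 and DESeq2. The labels and notes name no annotation release and no strand setting. Groups came from the sample titles and columns from the sample descriptions.

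The table has 60184 features, of which 5 are plasmid sequences and 60179 human genes. Estimates were rounded, plasmid rows were kept apart, and library sizes were the human sums. Features passed filterByExpr of edgeR 4.0.16 (minimum count 10, minimum total 15), which left 17449. After TMM scaling, a quasi-likelihood model with a mean per group was fitted to all 6 libraries, whose common biological coefficient of variation was 6.34%, and 8 h was contrasted with 4 h (R 4.3.3). P-values were adjusted over all features by Benjamini-Hochberg with a threshold of 0.05. CPM values use the TMM-scaled library sizes. Each fold change is from the model, and each CPM value is 1 library.

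Symbols were found for 41692 features, 15719 of them tested, and gene lengths, coordinates and GC content came from GENCODE 29 (17255 tested features). Promoters are RefSeq's. The floor of 3 counts covers counting error only. Genes were named by rule: TET, DNMT and TDG genes, the 15 largest non-overlapping called folds of at least 5 CPM and the 12 smallest p-values in each direction, and the 4 called members of smallest p in each list and direction. The comparison, its members and the gene lists were chosen with earlier results of these data known. A list is described by its calls and median beside those of all features, with no test of the list. Alternatives changed the scaling, filter, tool and samples.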

Additional observations from a re-analysis of the deposited data

How the results depend on the processing

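The reported test called 358 features higher and 212 lower. Leaving out 1 of the 6 libraries in turn gave 6 to 197 higher and 0 to 77 lower. Other counts that moved by over 1.5 times were 48 higher and 5 lower with no low-count filter, 9 and 0 in a glmTreat test against 1.2-fold (710 and 579 at an unadjusted p under 0.05), 592 higher with DESeq2 1.42.0, 136 lower with the 4 uncaged libraries alone and 449 lower with library totals as the scale. Offsets for transcript length and GC, added after the data were seen, gave 803 and 342. RLE and upper-quartile factors, cyclic loess, a filter of 1 CPM in 2 libraries, limma-voom and plasmid rows included stayed within 1.5 times in both directions. Whole estimates alone gave 305 and 170 of 6270 tested, and 182 of these 475 calls were shared with the reported 570.

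With the replicate block, 151 features were higher and 42 lower. Replicate numbers did not pair the libraries: the deviations of the 4 h and 8 h libraries correlated at -0.21, and those of the caged libraries with them at -0.10 and 0.17. A crossed replicate block, added after the data were seen, gave 904 and 608.

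Of 122 genes named with values, 116 were called, and 115 kept their direction in every alternative that tested them. In the fits that left out a library the direction was nearly fixed, because no called feature had overlapping groups. The fit on whole estimates alone tested 40 of the 116. TET2 turned to -0.025 with cyclic loess. Among genes that were not called, TET3 ranged from -0.194 without replicate 1 at 4 h to 0.10 without replicate 2 at 4 h, and turned to 0.14 with length and GC offsets, DNMT1 to -0.004 with library totals and -0.015 with cyclic loess, and DNMT3A to 0.007 with length and GC offsets. The cause of these turns was not tested. With 2 libraries per group and 3 residual degrees of freedom, the number of libraries limits the precision, and a lone library is assumed to vary like the other groups.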
